A study of Rattus norvegicus with 12 samples.

Results

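Transcripts of 8 genes that carry the insulin signal from the receptor to the nucleus were followed in the rat prefrontal cortex (PFC) after acute stress, namely Irs1, Irs2, Pdpk1, Akt1, Akt2, Gsk3b, Foxo1 and Foxo3. They were chosen by name as a pathway, with earlier results of these data known, and each was read from the probe set that the array annotation assigns to that symbol alone, taking the probe set of highest mean where there was a choice. All 8 were found and all 8 had a mean log2 value above 4, among 14847 genes that met the same conditions. Foxo3 had a second probe set, and the other 7 genes had 1 each.

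The animals were adult male Sprague-Dawley rats. The Stress group (6 rats) went through 40 min of inescapable footshock of 0.8 mA, with 20 min of actual shock and pauses of 2 to 8 s, and was returned to the home cage. The Control group (6 rats) stayed undisturbed in the home cage. Both groups were killed 2 h after the session began, and the whole PFC of each rat was measured on 1 Affymetrix Rat Gene ST array, so the number of arrays sets the precision.

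Insulin and insulin-like growth factors bind receptor tyrosine kinases that phosphorylate the insulin receptor substrates IRS1 and IRS2. These recruit phosphoinositide 3-kinase (PI3K), whose lipid product brings PDK1, encoded by Pdpk1, and AKT to the membrane, where PDK1 phosphorylates AKT. Active AKT phosphorylates GSK3, a kinase that is then inhibited, and the FOXO transcription factors, which then leave the nucleus. In neurons the pathway is known for its part in survival, glucose use and synaptic plasticity, and much of its control is by phosphorylation, which an mRNA array does not measure.

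The median log2 value of an array was 5.48 to 5.54, any pair of arrays correlated at 0.994 to 0.998, and 0 pairs held identical values. Clustering by the dimmest probe sets, with the number of sets fixed at 2 beforehand, split the arrays into 2 sets that no label names. The first set consisted of Control 1, 2, 3 and 4, and the second of the other 2 controls (5 and 6) with the 6 stressed rats. The labels do not explain the sets, so each difference is also given within array set 2, which compares 2 controls with 6 stressed rats. The neuronal markers Snap25 and Syt1 and the astrocyte marker Slc1a2 were among the brightest marker probe sets, as in cortex. The centred mean of 11 choroid plexus markers was 2.78 in Control 5 and at most −0.066 elsewhere, and striatal markers were high on some arrays. Control 5, which is among the 2 controls of array set 2, also had the highest striatal (0.86) and endothelial (0.12) marker means. Each difference within array set 2 thus rests in part on an array of different marker content.

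The comparison of stressed with control rats asked whether mRNA of the pathway differs 2 h after the start of footshock. Of the 8 genes 0 passed an adjusted p of 0.05 (limma, Benjamini-Hochberg adjustment over the 16085 probe sets tested), where 0.0435% of all probe sets passed, 0.0373% as higher and 0.00622% as lower in stressed rats. Foxo3 was the 1 gene with an unadjusted p under 0.05, a level that 6.35% of all probe sets met. Of the 8, 6 had a lower mean after stress, while Irs2 and Foxo3 had a higher one, as had 53.0% of all probe sets tested. The median difference of the 8 was −0.030 on the log2 scale, beside 0.0039 over all probe sets tested. For each of the 8 the stressed and control rats overlapped, as they did for all but 0.441% of the probe sets tested. In this fit of group alone the 95% intervals reach at most 0.23 above and 0.40 below 0. For Pdpk1 and Gsk3b they stay within 0.10 of 0. With the array set as a term the standard errors were larger, so these limits do not carry over to that fit. It gave 0.15 (SE 0.12) for Irs2, −0.18 (SE 0.18) for Foxo1, −0.032 (SE 0.043) for Pdpk1 and −0.0495 (SE 0.041) for Gsk3b.

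**Figure D1:**
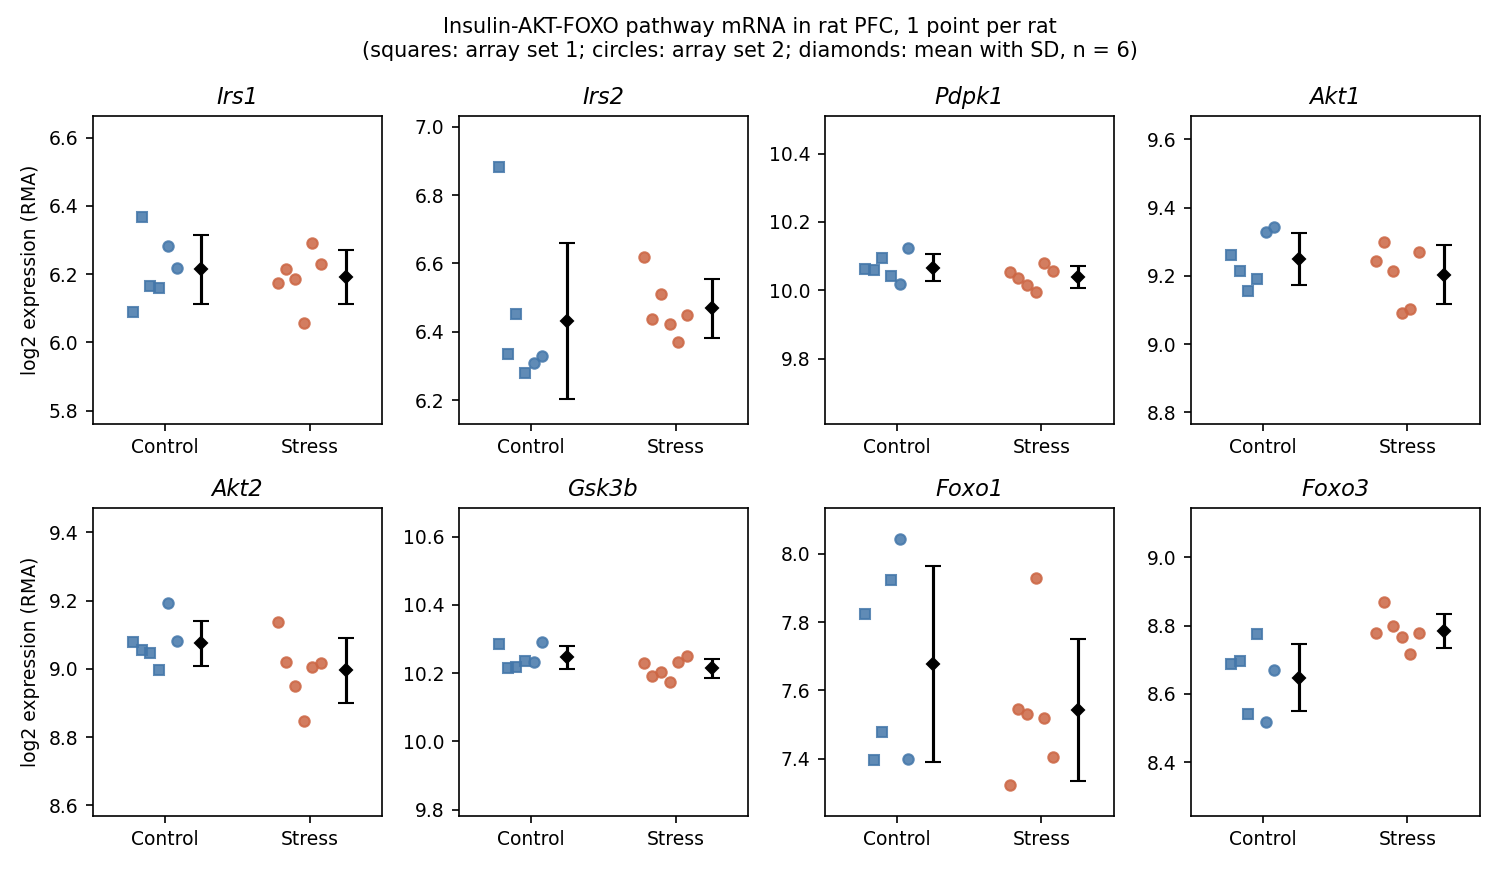
Log2 expression of the 8 genes in each rat. Every panel spans 0.9 log2 units, squares are arrays of set 1 and circles arrays of set 2, and diamonds with bars give the group mean and SD (n = 6). The groups overlap in every panel, and Foxo1 and Irs2 scatter most.

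At the head of the pathway are the receptor substrates. Irs1, the adaptor first found as the main substrate of the insulin receptor, had log2 values of 6.09, 6.37, 6.16, 6.16, 6.28 and 6.22 in Control 1 to 6 and of 6.17, 6.21, 6.19, 6.06, 6.29 and 6.23 in Stress 1 to 6. The lowest value belonged to a stressed rat and the highest to a control, with the rest interleaved. The difference, here and below stressed minus control, was −0.022 (SE 0.050, 95% interval −0.13 to 0.086, limma adjusted p = 0.969), and −0.059 within array set 2. Markers of blood cells, 7 of 7 of which were lower after stress at an unadjusted p under 0.05 and 0 past the threshold, ran from −0.46 to 0.96 in controls and from −0.75 to −0.036 in stressed rats as a centred mean. Over the 12 arrays their deviations and those of Irs1 had a Pearson r of −0.67 (permutation p = 0.033, adjusted p = 0.351) and a Spearman rho of −0.65 (permutation p = 0.037, adjusted p = 0.292). r was −0.48 without Control 2 and Control 3, and the part of blood RNA in the Irs1 values was not tested.

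Irs2 encodes a related adaptor, prominent in liver, beta cells and brain, and its gene is a known FOXO target. Its log2 values were 6.88, 6.33, 6.45, 6.28, 6.31 and 6.33 in Control 1 to 6 and 6.62, 6.44, 6.51, 6.42, 6.37 and 6.45 in Stress 1 to 6. Control 1 stood above every other array, while 4 of 6 controls lay below all stressed rats. The difference was 0.037 (SE 0.088, 95% interval −0.15 to 0.23, limma adjusted p = 0.970). It was 0.13 without Control 1 (unadjusted p of 0.018 and adjusted p of 0.622 by limma) and 0.15 within array set 2, which does not hold that array (unadjusted p of 0.040 and adjusted p of 0.746 by limma). Without the other arrays in turn it ran from 0.0068 to 0.057.

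Of the kinases that follow, Pdpk1 and Gsk3b varied little among rats. Pdpk1, whose product phosphorylates the activation loop of AKT, lay between 10.02 and 10.12 in controls (median 10.06) and between 9.99 and 10.08 in stressed rats (median 10.04). Its within-group SD of 0.035 was smaller than that of all but 1.72% of the probe sets tested. The difference was −0.027 (SE 0.030, 95% interval −0.091 to 0.036, limma adjusted p = 0.933), and −0.032 within array set 2. It ran from −0.037 to −0.016 without single arrays, the latter without Control 6. The lowest Pdpk1 values of each group were those of Control 5 (10.02), Control 4 (10.04) and Stress 4 (9.99), the 3 arrays of highest striatal marker mean described with Foxo1. With that mean as a covariate the Pdpk1 difference was −0.052 (limma adjusted p = 0.906), and the part of striatal RNA was not tested.

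Akt1 and Akt2 encode AKT isoforms, of which AKT2 is the one tied most closely to insulin-stimulated glucose uptake. Akt1 was at 9.26, 9.21, 9.16, 9.19, 9.33 and 9.34 in Control 1 to 6 and at 9.24, 9.30, 9.22, 9.09, 9.10 and 9.27 in Stress 1 to 6. The 2 lowest arrays were Stress 4 and Stress 5 and the 2 highest were Control 5 and Control 6, with full overlap between. The difference was −0.046 (SE 0.047, 95% interval −0.15 to 0.055, limma adjusted p = 0.923). Akt2 was at 9.08, 9.05, 9.05, 8.998, 9.19 and 9.08 in Control 1 to 6 and at 9.14, 9.02, 8.95, 8.85, 9.01 and 9.02 in Stress 1 to 6. All stressed rats but Stress 1 lay below the control mean. The difference was −0.079 (SE 0.047, 95% interval −0.18 to 0.021, limma adjusted p = 0.839).

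Within array set 2 the differences were larger, −0.13 for Akt1 (SE 0.063) and −0.14 for Akt2 (SE 0.070), with limma adjusted p of 0.765 and 0.775. A fit of all 12 arrays that also held the array set gave the same differences, since set 1 is all controls. In that fit both had an unadjusted p under 0.05 and adjusted p of 0.870 and 0.875 by limma. Array set 2 holds only 2 controls, of which Control 5 was the highest array of Akt2. Without Control 5 the differences over the remaining arrays were −0.030 for Akt1 and −0.055 for Akt2. Over all arrays left out in turn, Akt1 ran from −0.065 without Stress 2 to −0.023 without Stress 4, with −0.026 without Stress 5 and −0.027 without Control 6. Akt2 ran from −0.11 without Stress 1 to −0.049 without Stress 4. The size of both differences thus moved with single arrays, and their sign did not. A list of 10 measured endothelial markers moved along with Akt1. Its centred mean was highest in Control 5 (0.12) and Control 6 (0.084) and lowest in Stress 4 (−0.13). It ran from −0.030 to 0.12 in controls and from −0.13 to 0.016 in stressed rats, with 6 of the 10 markers lower in stressed rats, 4 of them at an unadjusted p under 0.05, where 1 was higher. After removal of group means, Akt1 and this list correlated over the 12 arrays with a Pearson r of 0.78 (permutation p = 0.0041, adjusted p = 0.088) and a Spearman rho of 0.80 (permutation p = 0.0025, adjusted p = 0.054). r was 0.68 without Control 5 and Stress 4. The part of endothelial RNA in the Akt1 difference was not tested.

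Gsk3b encodes GSK3 beta, the kinase that AKT inhibits and that acts on glycogen synthase, beta-catenin and tau. It ran from 10.22 to 10.29 in controls (median 10.23) and from 10.17 to 10.25 in stressed rats (median 10.22). It had the smallest within-group SD of the 8 genes, 0.031, with 1.09% of all probe sets tested below it. Below all controls lay 3 stressed rats, and above all stressed rats lay 2 controls. The difference was −0.033 (SE 0.029, 95% interval −0.095 to 0.029, limma adjusted p = 0.897), and −0.050 within array set 2.

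**Figure D2:**
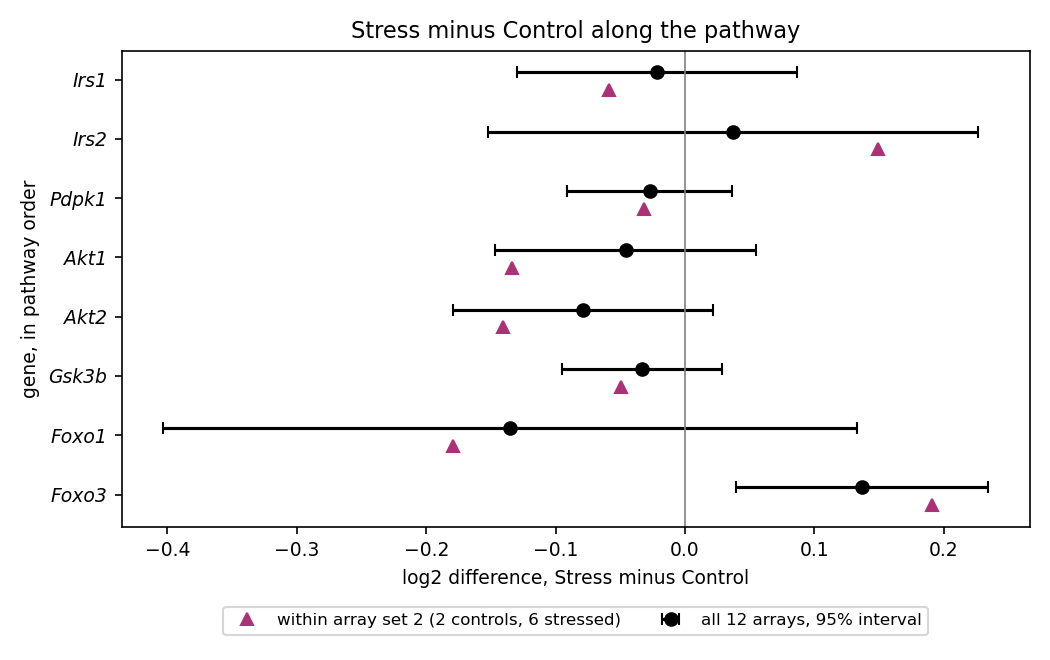
Log2 difference, Stress minus Control, of the 8 genes in pathway order. Black points with bars give the fit over 12 arrays with its 95% interval, and triangles the difference within array set 2. The interval leaves 0 out for Foxo3 only, before adjustment for the number of probe sets tested.

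At the nuclear end of the pathway the FOXO factors differed from each other in how they varied. Foxo3 encodes a forkhead factor that drives genes of stress resistance, autophagy and cell death when AKT or SGK kinases do not hold it in the cytoplasm. Its log2 values were 8.69, 8.70, 8.54, 8.77, 8.52 and 8.67 in Control 1 to 6 and 8.78, 8.87, 8.80, 8.77, 8.72 and 8.78 in Stress 1 to 6. Each stressed rat lay above the control mean, 4 of them lay above all controls, and 5 controls lay below all stressed rats, with Control 4 the exception. The means were 8.65 ± 0.099 and 8.78 ± 0.050 (SD, n = 6 each). The difference of 0.14 (SE 0.045, 95% interval 0.040 to 0.23), or 1.10-fold, had an unadjusted limma p of 0.0093 and an adjusted p of 0.613, so it did not pass. An unadjusted p under 0.01 was met by 1.60% of all probe sets.

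The Foxo3 difference was 0.19 within array set 2, where Control 5, the lowest Foxo3 array, is 1 of only 2 controls. When single arrays were left out, the Foxo3 difference ran from 0.11 without Control 5 to 0.16 without Control 4. It was 0.14 with a striatal and 0.12 with an oligodendrocyte marker mean as a covariate. The second Foxo3 probe set was dim, at 3.24 to 3.41 over all arrays and under the level used for testing, and its difference was 0.0098.

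Foxo1, the forkhead factor best known for driving gluconeogenic genes in liver when insulin is low, is in the mouse brain known to be abundant in striatum. Its log2 values were 7.83, 7.40, 7.48, 7.92, 8.04 and 7.40 in Control 1 to 6 and 7.32, 7.54, 7.53, 7.93, 7.52 and 7.40 in Stress 1 to 6. The 4 arrays of Control 1, Control 4, Control 5 and Stress 4 lay at 7.83 or above, and the other 8 lay between 7.32 and 7.54. Of all probe sets tested, 97.6% had a smaller within-group SD than the 0.25 of Foxo1. The difference was −0.14 (SE 0.13, 95% interval −0.40 to 0.13, limma adjusted p = 0.907), and −0.18 within array set 2. It ran from −0.21 without Stress 4 to −0.062 without Control 5.

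The same 4 arrays were highest in the mean of 13 measured markers of the projection neurons of the striatum, which lies close to the PFC. The centred mean was 0.86 in Control 5, 0.74 in Control 4, 0.60 in Stress 4 and 0.25 in Control 1, and between −0.50 and −0.044 in the other 8. For 12 of the 13 markers, Drd1, Drd2, Adora2a and Tac1 among them, Control 4, Control 5 and Stress 4 lay above the other 9 arrays, with Meis2 the exception. The list ran from −0.47 to 0.86 in controls and from −0.50 to 0.60 in stressed rats, and the stressed rats averaged lower for 13 of 13, with 0 past the threshold and 2 at an unadjusted p under 0.05. Because the arrays fall into separate sets in both measures, no correlation over all arrays is given. Among the 8 arrays of lower Foxo1, r was 0.34 (exact permutation p = 0.38), rho was 0.31 (exact permutation p = 0.46), and r was −0.057 without the 2 arrays farthest from the median. These 8 were picked by their low Foxo1, which narrows its range, so a weak r among them cannot settle whether the 2 measures go together.

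With this striatal mean in the fit, the Foxo1 difference turned to 0.065 (SE 0.056, limma adjusted p = 0.972). Without the 3 arrays of highest striatal mean, a choice made after seeing the data, it was −0.060. With an oligodendrocyte and myelin marker mean as a covariate it was −0.27 (unadjusted p of 0.041 and adjusted p of 0.415 by limma). Of the 11 markers in that mean, 11 averaged higher in stressed rats, and the list ran from −0.31 to 0.25 in controls and from −0.057 to 0.21 in stressed rats. In tissue of mixed cells, fewer cells of a type and less RNA per cell cannot be told apart.

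**Figure D3:**
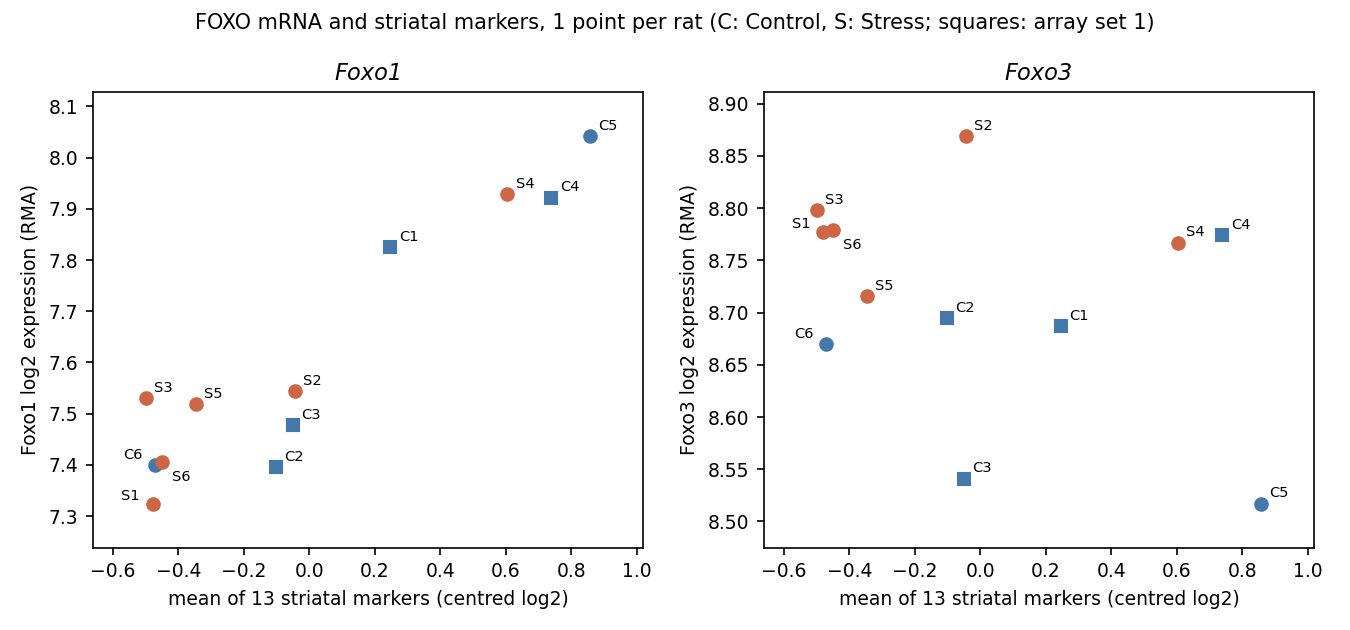
Foxo1 (left) and Foxo3 (right) log2 expression against the centred log2 mean of 13 striatal markers, 1 point per rat, with C for Control, S for Stress and squares for array set 1. The 4 arrays of highest striatal mean are the 4 of highest Foxo1, from 7.83 to 8.04, while Foxo3 shows no such order.

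The genes whose deviations from the group mean were most like those of each member over the 12 arrays are given as a description. They top a search through many genes, and neither their r nor their rank was tested, so no relation is read from them. For Foxo1 they were Grik2, a kainate receptor subunit (r = 0.98), and Ryr3, a ryanodine receptor (r = 0.98), over arrays of which 4 were high and 8 low in Foxo1. For Foxo3 they were Map3k6, a kinase of the MAP3K family (r = 0.93), and Pax3, a paired-box factor (r = 0.92). For Akt1 they were Nfkb1, a subunit of NF-kappa-B (r = 0.94), and Cdc42bpb, a kinase that binds CDC42 (r = 0.93). Those of Akt2 were Arhgap5 (r = 0.88) and Trmt9b (r = 0.87). Pdpk1 was nearest to Becn1, the autophagy protein beclin (r = 0.95), and Ubl4a (r = 0.93), and Gsk3b to Zfp697 (r = 0.92) and Flt4, a vascular endothelial growth factor receptor (r = 0.91). Irs1 was nearest to Heatr4 (r = 0.91) and Cage1 (r = 0.87), and Irs2 to Slc39a3, a zinc transporter (r = 0.95), and Fpr2l1 (r = 0.94).

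Among the members themselves, 28 pairs were compared in the same way, of which the 21 without Foxo1 are given, since its values fall into separate sets of arrays. Pearson r ran from −0.52 for Irs1 with Irs2 to 0.65 for Akt1 with Akt2. The Akt1 and Akt2 relation had a permutation p of 0.033 (adjusted p = 0.457) and a rho of 0.67 (permutation p = 0.026, adjusted p = 0.362), with r at 0.59 without the 2 arrays farthest from the median. The smallest permutation adjusted p among the 21 was 0.457 for r and 0.362 for rho, so none passed. Of 64 relations of the members with 8 marker lists, 42 involve neither Foxo1 nor the striatal and choroid lists, which also divide the arrays. Their smallest permutation adjusted p was 0.088 for r and 0.054 for rho, both for Akt1 with the endothelial list.

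Other genes of the pathway were taken from 9 lists of 168 genes in all, 150 of which could be tested. Of the 142 tested genes that are not among the 8, 91 had a higher and 51 a lower mean in stressed rats. The higher ones made up 64.1%, beside 53.0% of all probe sets tested. Past the threshold were 2, Sgk1 and Pdk4, which rose, and 0 fell. At an unadjusted p under 0.05 there were 11 higher and 4 lower, which is 10.6% beside 6.35% of all probe sets. The lists were written with earlier results of these data known, so this comparison is a description and not a test of the pathway. With the 8 members counted in, the 12 higher and 4 lower became 9 and 8 with the array set in the fit, and 9 and 7 within array set 2. The median difference was 0.015 beside 0.0039 over all probe sets. Insr, Irs2 and Cdkn1b were in 2 lists each and were counted once in these totals.

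**Figure D4:**
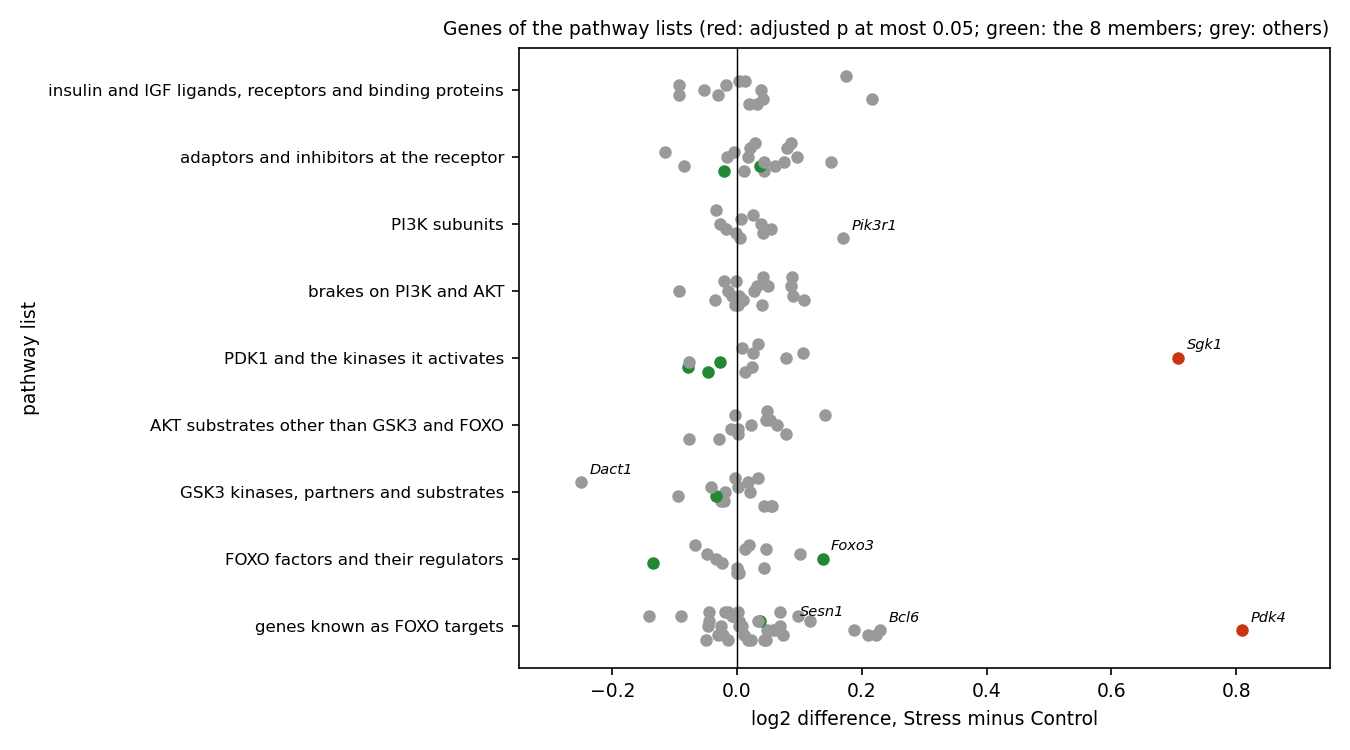
Log2 difference, Stress minus Control, of every tested gene in the 9 pathway lists, with 1 point per gene. Sgk1 at 0.71 and Pdk4 at 0.81 passed the threshold, and names are printed for these and for genes with an unadjusted p under 0.01.

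At the receptor, 0 of 13 tested ligands, receptors and binding proteins had an unadjusted p under 0.05. Insr, the insulin receptor, was at 0.0029 (SE 0.047) and Igf1r, the receptor of insulin-like growth factor 1, at 0.041 (SE 0.050), values read for the receptors after the results were seen. Igfbp4 and Igfbp6, which bind insulin-like growth factors, were at 0.17 and 0.22 (limma adjusted p of 0.811 and 0.869), and Igfbp4 was at 0.048 with the striatal covariate. Of 18 adaptors and receptor inhibitors, 1 had an unadjusted p under 0.05. It was Ptpn1, the phosphatase that removes phosphate from the insulin receptor, at 0.15 (SE 0.059, limma adjusted p = 0.708). Ptpn11, the phosphatase SHP2, was at 0.096 (adjusted p of 0.791 by limma, and a difference of 0.048 within array set 2).

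Of 11 PI3K subunits, Pik3r1, the regulatory subunit alpha that ties PI3K to IRS proteins, stood apart. It had log2 values of 9.27, 9.23, 9.29, 9.27, 9.23 and 9.33 in Control 1 to 6 and of 9.42, 9.54, 9.44, 9.50, 9.39 and 9.35 in Stress 1 to 6. All 6 stressed rats lay above all 6 controls, which was so for 0.311% of all probe sets, and in either direction for 0.441%. The difference was 0.17 (SE 0.037), or 1.12-fold, with an adjusted p of 0.224 by limma, so it did not pass. It was 0.16 within array set 2 and ran from 0.15 to 0.19 without single arrays. Pik3c3, the catalytic subunit that works in autophagy, was at 0.055 (limma adjusted p = 0.837). Among 19 brakes on PI3K and AKT, Trib2, a pseudokinase that binds AKT, was at −0.093 and Pik3ip1, an inhibitor of PI3K, at 0.11, with limma adjusted p of 0.769 and 0.780 and differences of −0.15 and 0.17 within array set 2.

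Of 12 kinases in the list of PDK1 and its substrates, Sgk1 rose. SGK1 is activated by PDK1 as AKT is and phosphorylates FOXO3. Its log2 values were between 8.91 and 9.20 in controls and at 9.74, 9.88, 9.81, 9.90, 9.78 and 9.30 in Stress 1 to 6, with a difference of 0.71 (SE 0.090, limma adjusted p = 0.00914). Stress 6 was nearest to the controls but still above each of them. With the array set in the fit the Sgk1 difference was 0.68 and its limma adjusted p 0.303. Sgk2, its paralog, was at 0.11 (SE 0.045, limma adjusted p = 0.744) but at 0.0046 within array set 2. The other AKT substrates had 0 of 13 genes under an unadjusted p of 0.05, with Map3k5, the kinase ASK1, at 0.14 (0.040 with the striatal covariate) and Akt1s1, the mTORC1 inhibitor PRAS40, at −0.077 (adjusted p of 0.796 and 0.860 by limma).

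Of 15 GSK3 kinases, partners and substrates, 7 were higher and 8 lower. Dact1, which binds Dishevelled upstream of GSK3 in Wnt signalling, was at 5.40, 5.25, 5.38, 5.36, 5.42 and 5.21 in Control 1 to 6 and at 5.04, 5.13, 5.25, 5.06, 5.03 and 5.01 in Stress 1 to 6. All stressed rats but Stress 3 lay below all controls. The difference was −0.25 (SE 0.049, limma adjusted p = 0.154; −0.23 within array set 2). Axin2, a scaffold of the complex in which GSK3 phosphorylates beta-catenin, was at −0.095 (limma adjusted p = 0.780) and at −0.021 within array set 2. Foxo4, a further FOXO factor, was at 0.10 (SE 0.048, limma adjusted p = 0.796; 0.15 within array set 2).

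Genes known as FOXO targets lie at the end of the pathway. Of 38 tested, 24 were higher and 14 lower, 1 passed the threshold, and at an unadjusted p under 0.05 there were 6 higher and 1 lower. All probe sets met that level on the higher side in 3.43% and on the lower side in 2.92%, and 53.0% of them had a higher mean. This list too was written with earlier results known, so the comparison is a description. The gene that passed was Pdk4, which encodes a kinase that shuts off pyruvate dehydrogenase. It was between 4.90 and 5.53 in controls and at 5.96, 6.02, 6.19, 6.04, 6.11 and 5.41 in Stress 1 to 6, so that only Stress 6 overlapped the controls. Its difference was 0.81 (SE 0.13, limma adjusted p = 0.0419), and 0.64 within array set 2. It passed without Control 5 or without Stress 6 and did not when any of the other 10 arrays was left out. With the array set in the fit its limma adjusted p was 0.637.

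Sesn1, a sestrin that restrains mTORC1, was at 7.65, 7.70, 7.86, 7.71, 7.77 and 7.92 in Control 1 to 6 and at 8.00, 7.84, 8.01, 7.98, 8.05 and 7.86 in Stress 1 to 6, with 4 stressed rats above all controls. The difference was 0.19 (SE 0.053, limma adjusted p = 0.423; 0.11 within array set 2). Bcl6, a transcriptional repressor, was at 0.23 (SE 0.068, limma adjusted p = 0.463), with 5 stressed rats above all controls. The other genes under an unadjusted p of 0.05, named after their values were seen, were Klf15 (0.097), Eif4ebp1 (0.12), Cdkn1a (0.21) and, on the lower side, Ccnd1 (−0.14), with limma adjusted p from 0.683 to 0.773. Pdk4, Klf15 and Sgk1 are also known as glucocorticoid-induced genes.

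Promoter sequence of RefSeq (GRCr8), from 250 bases before to 50 after an annotated start, was searched on both strands for the FOXO core motif GTAAACA, whose reverse complement is TGTTTAC. Windows were given for 6 of the 8 genes, not for Irs2 and Foxo3, and 0 of the 6 held the motif. It was in 3 of the 31 tested FOXO target genes with a window (Insr, Bcl2l11 and Trim63), or 9.68%, beside 3.78% of all windows. These 3 had differences of 0.0029, 0.073 and 0.023 and none had an unadjusted p under 0.05 by limma. The windows of Insr (chr12:6128754-6129053, minus strand) and Pdk4 (chr4:34568280-34568579, minus strand) are printed as examples, picked after the differences were seen. The first holds the motif, in capitals, 100 bases before the start, and the second does not hold these letters. Windows picked in this way and searched for exact letters cannot tell whether FOXO factors act on either gene.
Insr: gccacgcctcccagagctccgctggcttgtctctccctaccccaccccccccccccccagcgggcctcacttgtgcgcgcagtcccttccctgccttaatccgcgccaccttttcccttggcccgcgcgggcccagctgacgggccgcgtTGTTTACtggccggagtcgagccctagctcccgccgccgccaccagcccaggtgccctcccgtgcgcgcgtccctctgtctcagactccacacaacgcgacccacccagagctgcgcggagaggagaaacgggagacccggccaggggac
Pdk4: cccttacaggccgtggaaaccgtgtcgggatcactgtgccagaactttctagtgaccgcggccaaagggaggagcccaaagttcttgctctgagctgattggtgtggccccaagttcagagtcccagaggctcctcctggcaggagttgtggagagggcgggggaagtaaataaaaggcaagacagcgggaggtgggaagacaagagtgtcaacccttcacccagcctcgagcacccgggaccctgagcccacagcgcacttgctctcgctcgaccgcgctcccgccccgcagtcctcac
Only the exact letters GTAAACA and TGTTTAC were counted. The Pdk4 window holds gtaaata, a near form that was not searched for. A match in a window is a description of these letters and not of a factor bound there, and the array does not tell which start site was used.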

How the data were processed

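From 250 ng of total RNA per rat, the authors deposited 1 log2 value for each probe set, computed by RMA in oligo (version 1.58.0). RMA equalises probe intensities between arrays before summarising them, which can hide a shift common to most genes, and changes of dim probe sets are understated. The genome build of the annotation was not given in the sources used here. The platform annotation gave 1 symbol for 18644 of 29214 probe sets, several for 962 and none for 9608. Single symbols were updated by gene identifier for 99.0% of those probe sets.

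Groups came from the sample labels. Probe sets with 1 symbol and a mean above 4 (16085) entered a two-sided limma fit (lmFit, eBayes; version 3.58.1 in R 4.3.3) of group alone, the study's own choice of test, with Benjamini-Hochberg adjustment over all of them. The script was tested on simulated data. Array sets came from average-linkage clustering of 5682 probe sets with a mean under 4. Correlations used deviations from group means and 100000 permutations of arrays within groups, adjusted within each family. Values per group are means ± SD. List means are means of log2 values centred per gene.

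Genes named were the 8 members, pathway genes past the threshold or with an unadjusted p under 0.01, the 2 of smallest p in each list, and the 2 genes most like each member. Lists were written from general knowledge. The members and lists were chosen with earlier results of these data known. Alternatives were other filters, scaling, variance moderation, array weights, array set, marker covariates, a replicate block and leaving out arrays. The fit with the array set as a term repeats the differences within array set 2 and changes only their standard errors and p-values. Rats were housed in pairs, and which shared a cage was not given in the sources used here.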

Additional observations from a re-analysis of the deposited data

Results flagged for a closer look

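In groups of 6, the highest or lowest array was compared with its nearest neighbour by Dixon's ratio for the 8 genes and the 18 other pathway genes named by rule, in 52 checks, of which chance marks about 1 in 20. In 5 checks an array stood apart. Irs2 was 6.88 in Control 1, where the other controls lay between 6.28 and 6.45. Foxo1 was 7.93 in Stress 4, where the other stressed rats lay between 7.32 and 7.54. Sgk1 was 9.30 in Stress 6, with the other stressed rats between 9.74 and 9.90. Pdk4 was 5.41 in the same array, with the others between 5.96 and 6.19. Pik3ip1 was 7.13 in Control 6, with the other controls between 7.29 and 7.37.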

How the results depend on the processing

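Under all 25 alternatives 0 of the 8 genes passed the threshold, and the smallest adjusted p was 0.3995, that of Foxo3 with the oligodendrocyte covariate. Foxo3, Pdpk1, Akt1, Akt2 and Gsk3b kept their direction in each of them. Members with an unadjusted p under 0.05 numbered 1, but 3 with the array set as a term, 2 within array set 2, 2 with the oligodendrocyte covariate, and 1 to 2 without single arrays. Pathway genes past the threshold numbered 2, but 1 with all probe sets tested, 1 with an intensity trend and robust moderation, 0 with the array set as a term, 0 within array set 2 and 0 with the oligodendrocyte covariate, and 1 to 2 without single arrays. Pathway genes higher at an unadjusted p under 0.05 numbered 12, with a range of 9 to 18 over the alternatives. Pathway genes lower at an unadjusted p under 0.05 numbered 4, but 8, 7 and 9 under these last 3, 2 without Stress 5, and 1 when the 3 arrays of highest striatal mean were left out. All probe sets past the threshold numbered 7, but 1, 1 and 3 under these 3, 11 with the striatal covariate, and 4 to 8 without single arrays. Direction reversed for Foxo1 with the striatal covariate (0.065). It reversed for Irs1 without Control 2 (0.0094) and without Stress 4 (0.0055), within a range of −0.047 to 0.0094 without single arrays. Without the 3 arrays of highest striatal mean, chosen after seeing the data, Irs1 was at 0.0096 and Irs2 at −0.022. The cause was not tested.

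Replicate numbers are shared by the groups, but no label says that a number marks a shared cage, batch or day. Deviations of same-numbered arrays correlated from −0.14 to 0.42, over 0.1 in 4 of 6 pairs, and 3 of 6 correlated best with their own number. These values neither show nor exclude a pairing, and none was assumed because no label gives one. With the replicate block 0 of the 8 genes and 2 pathway genes passed, as without it. At an unadjusted p under 0.05 by limma, 17 pathway genes were higher and 3 lower with the block, beside 12 and 4 without. The block made the standard error smaller for Irs2 (0.054) and Foxo1 (0.094) and larger for Pdpk1 (0.034) and Gsk3b (0.031).

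The number of arrays limits precision most for Foxo1 and Irs2. Their 95% intervals in the fit of group alone ran from −0.40 to 0.13 and from −0.15 to 0.23.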
